A study of Mus musculus with 8 samples.

Results

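Cluster 4 is a set of lung group 2 innate lymphoid cells (ILC2s), lymphocytes without antigen receptors that secrete type 2 cytokines after the epithelial alarmin IL-33. Its members were the 1071 cells, of 9076 in the droplet data, that carry the number 4 in the authors' own clustering. The working name "heat-shock high" came from its marker Hspa1a, which encodes an inducible HSP70 chaperone. The cells were sorted from male wild type C57BL/6 mice treated through the nose on 3 consecutive days, tagged with 8 hashtag antibodies and run as 1 pool. The cell table names 3 treatments: PBS (hashtags 1 and 2), IL-33 (hashtags 3, 4 and 5) and IL-33 with dopamine, a catecholamine neurotransmitter (hashtags 6, 7 and 8). The sample descriptions speak of IL-33 given with PBS or with dopamine, so what the animals of the PBS group received is known from its name in the cell table alone. A second assay, full-length bulk Smart-Seq2, covered 3 libraries of IL-33 plus PBS and 3 of IL-33 plus dopamine from female wild type mice of the same strain. Neither source says that a hashtag was 1 mouse, so p-values over hashtags measure the spread between tagged samples, which may be technical.

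The heat-shock response protects proteins when they unfold. Heat-shock factor 1 binds repeated GAA units in promoters and switches on HSP70 (Hspa1a, Hspa1b), its HSP40 partner Dnajb1, HSP90 and their helpers, which bind and refold client proteins. In sorted tissue cells the same genes, together with the Fos and Jun immediate early genes, are also known to be induced by warm enzymatic dissociation.

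Hspa1a and Hspa1b lie side by side on chromosome 17 on the minus strand (17:34969190-34972156 and 17:34956436-34959238, GENCODE M21 on GRCm38). Their promoters are printed because these genes set cluster 4 apart most and because the promoters are near-copies. The genes themselves are known paralogs with similar sequences; how reads that fit both were counted is not stated, so their separate counts are best read together. The sequences are RefSeq's for GRCm38.p6 and hold the 250 bases before the annotated start, 5′ to 3′ on the gene's strand, with the 2-unit heat-shock element GAANNTTC in capitals.
Hspa1a, chr17:34972157-34972406, minus strand: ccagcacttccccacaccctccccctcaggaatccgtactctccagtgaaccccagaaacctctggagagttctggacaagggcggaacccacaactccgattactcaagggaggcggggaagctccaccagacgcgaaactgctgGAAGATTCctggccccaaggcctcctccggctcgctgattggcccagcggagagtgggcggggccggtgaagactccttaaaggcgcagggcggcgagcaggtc
Hspa1b, chr17:34959239-34959488, minus strand: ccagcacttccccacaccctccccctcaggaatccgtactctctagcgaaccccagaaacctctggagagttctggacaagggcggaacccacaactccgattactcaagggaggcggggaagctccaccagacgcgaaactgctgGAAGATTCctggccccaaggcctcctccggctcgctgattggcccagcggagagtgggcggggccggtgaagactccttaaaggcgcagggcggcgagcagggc
Over 300 bases (250 before and 50 after the start) the promoters differed at 4 positions, 3 of them before the start, and were 98.67% identical. In both the element begins 104 bases before the start.

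Shorter stretches of 58 bases show the same element at 4 further genes that were higher in cluster 4. Jun encodes an AP-1 transcription factor, Dnaja1 an HSP40, and Hspd1 and Hspe1 the mitochondrial chaperonin and its lid, which share 1 stretch between divergent starts.
Jun, chr4:95052318-95052375, minus strand: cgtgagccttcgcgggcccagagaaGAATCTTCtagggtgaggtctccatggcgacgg
Dnaja1, chr4:40722319-40722376, plus strand: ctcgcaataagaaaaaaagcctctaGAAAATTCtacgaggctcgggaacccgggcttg
Hspe1, chr1:55088039-55088096, plus strand: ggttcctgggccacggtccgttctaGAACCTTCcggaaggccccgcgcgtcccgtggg
GAANNTTC, which reads the same on both strands, was present in 7.86% of all 32851 promoter windows of 300 bases. Counted by gene, in any window of the gene, it was in 9.04% of 27025 genes. Among the 20 genes highest in cluster 4, 14 had a window and 4 held the element (Hspa1a, Hspa1b, Jun and Chordc1). The 3-unit element is the same letters followed by any 2 bases and a further GAA. Searched on both strands, it was in 0.603% of windows and 0.662% of genes. It was in Chordc1 alone among the 14. Among heat-shock genes higher in cluster 4 in all hashtags, 14 had a window, and Hsph1, Chordc1, Hspd1 and Hspe1 held it. Of 34 other heat-shock genes with a window, Dnajb6 held it. The 2 units in the other order, TTCNNGAA, were in 9.6% of genes and in 1 of the 14 highest with a window, Chordc1. That form was in 4 of the 14 heat-shock genes higher in all hashtags and in 5 of the 34 others. GAANNTTC was in 7 of these 14 and in 7 of the 34 others. Dnajb1 had a window and held none of the 3 forms. A match is a string of letters and no evidence of binding.

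Cells of cluster 4 made up 9.65% and 11.2% of the cells of PBS hashtags 1 and 2. The share was 14.3%, 13.5% and 11.5% in IL-33 hashtags 3, 4 and 5, and 17.1%, 6.1% and 9.22% in hashtags 6, 7 and 8 with dopamine. Hashtag 6 had the highest share of all and hashtag 7 the lowest, so the dopamine group spanned the other 2 groups. The mean share was 10.8% ± 5.66 (SD, n = 3) with dopamine and 13.1% ± 1.41 (SD, n = 3) with IL-33. The difference of -2.29 points had a p of 0.6 in an exact two-sided permutation test. With 3 against 3 hashtags that test gives no p under 0.1, so it could not pass 0.05. Without hashtag 7 that difference was 0.0617 points. The IL-33 shares all lay above the PBS shares (10.4% ± 1.12, SD, n = 2), a difference of 2.65 points with an exact two-sided p of 0.2, where 0.1 is the smallest p these sizes allow.

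Sums of cluster 4 over a hashtag rested on 30 to 214 cells and 136578 to 1188959 UMIs, the fewest in hashtag 1. The median cell held 5160 UMIs, within the range of the other clusters (4082 to 8142), and 3.88% of UMIs in genes of mitochondrial DNA (3.63% to 4.40% elsewhere). When each cell was thinned to 2000 UMIs, cluster 4 had a median of 941 genes per cell against 872 to 912 in the other 5 clusters. On the authors' UMAP, 78.6% of the 20 nearest neighbours of a cluster 4 cell were in cluster 4 and 13.64% in cluster 0. Nothing available here says how the authors handled doublets, and none were called for this comparison.

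Most of these cells carried Gata3, the defining ILC2 transcription factor: 94.4% had a UMI of it, against 80.3% to 99.6% in the other clusters. The macrophage gene Lyz2 had a UMI in 0.187% of cluster 4 cells. Among ILC2 markers, Gata3, Rora, Areg and Arg1 were lower than in the other cells in 8 of 8 hashtags. Il7r was higher in 8 of 8, and Il1rl1, Klrg1, Icos, Il2ra and Thy1 were mixed. Il1rl1, the IL-33 receptor, stood at a mean of 730.4 CPM (UMIs scaled to a total of 1000000 per sum) against 750.1 in the other cells. T cell markers summed to 940.0 to 1250.0 CPM in cluster 4 and 1102 to 1406 in the other cells, and macrophage markers to at most 7.42 CPM. B cell markers were higher in cluster 4 in 8 of 8 hashtags (94.5 to 147 against 64.7 to 91.2 CPM), through Ighm at 112 CPM with Igkc at 0. Erythroid markers were higher in 7 of 8 (53.2 to 248 against 40.7 to 96.8 CPM), mostly through Hba-a1. The part of these transcripts in the cluster's profile was not tested.

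Hspa1a was the gene furthest above the other cells in cluster 4. Its level was 329.5 and 564 CPM in PBS hashtags 1 and 2, 275, 497 and 319.7 CPM in IL-33 hashtags 3 to 5, and 419.7, 532 and 451 CPM in dopamine hashtags 6 to 8. In the other cells of the same hashtags it was 16.65 and 17.9, then 21.8, 34.3 and 25.25, then 33.4, 42.2 and 36.7 CPM. Every cluster 4 value lay above every value of the other cells, and the 3 treatments overlapped within cluster 4. Because the clusters were drawn from these same counts, such gaps describe the clusters and carry no test. Unless said otherwise, ratios to the other cells are medians over the 6 hashtags with IL-33, on the log2(CPM + 1) scale. For Hspa1a the ratio was 3.61, with a range of 3.58 to 3.82.

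Hspa1b followed with 212 and 408 CPM in the PBS hashtags, 237, 357 and 251 CPM with IL-33 and 336, 412.5 and 486 CPM with dopamine. The other cells held 21.3 to 37.1 CPM of it, and the log2 ratio was 3.46 (2.96 to 3.77). Dnajb1, which hands clients to HSP70, stood at 278 and 178, then 138, 312.5 and 209, then 206, 211 and 534 CPM, against 37.3 to 57.5 CPM in the other cells, a log2 ratio of 2.26 (1.34 to 3.38). Its value in hashtag 8 was the highest of the 8, and its ratio ranged more widely than those of the HSP70 genes. Among the single clusters, Hspa1a averaged 416 ± 100.4 CPM (SD, n = 6 hashtags) in cluster 4 and 12.1 to 46.9 CPM in the others, lowest in cluster 3 and highest in cluster 5. Those of clusters 1, 2 and 5 did not differ beyond their spread (38.05 ± 16.65, 45.4 ± 21.95 and 46.9 ± 24.1 CPM, SD).

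**Figure D1:**
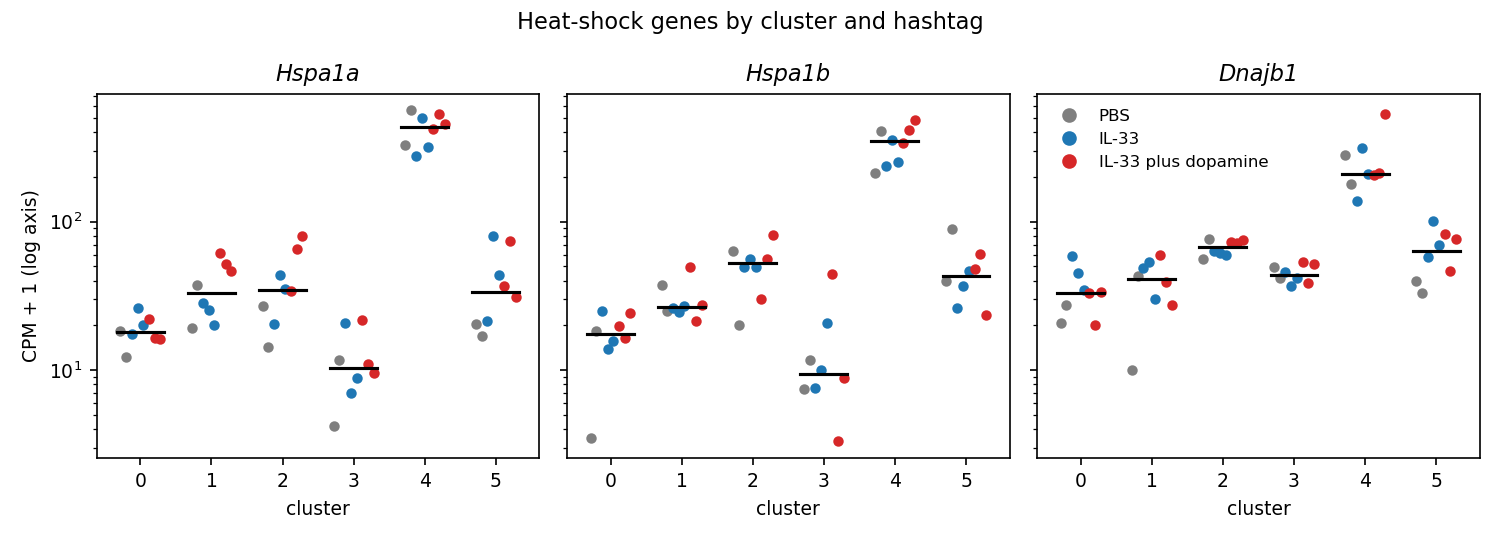
CPM + 1 on a log axis of Hspa1a, Hspa1b and Dnajb1 in each cluster; each point is 1 hashtag, coloured by treatment, and the bar is the median. All 8 cluster 4 points of each gene lie above all points of the other 5 clusters.

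Inducible HSP70 was spread unevenly among the cells. Of the 1071 cells, 506 (47.25%) had no UMI of Hspa1a or Hspa1b, 201 had 1 or 2, and 364 (33.99%) had 3 or more, with a maximum of 61. Among the 8005 other cells, 6964 (87.0%) had none and 207 (2.59%) had 3 or more. Cluster 4 held 62.56% of all UMIs of the pair. A UMI of Hspa1a itself was found in 30.63% of cluster 4 cells (95% Wilson interval 27.94% to 33.45%, counting error only) and in 4.81% to 12.4% of the cells of the other clusters. With every cell thinned to 2000 UMIs the shares were 23.64% and 1.75% to 5.59%.

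**Figure D2:**
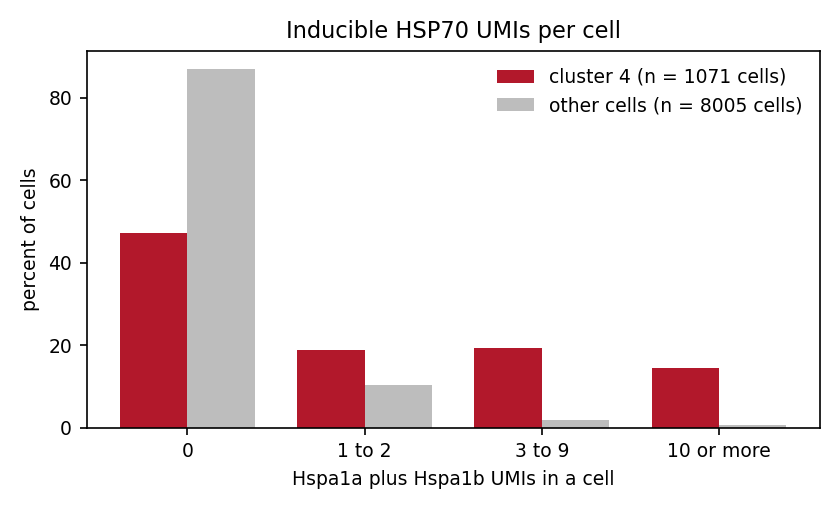
Percent of cells (bars) by the number of Hspa1a plus Hspa1b UMIs in the cell, for cluster 4 (n = 1071) and the other cells (n = 8005). Nearly as many cluster 4 cells have none (47.25%) as have some, and 14.57% have 10 or more against 0.600% of the other cells.

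The 506 cells without a UMI of either HSP70 gene stood apart from the other cells in Txnip, Klf2 and Il5 as the 565 with one did. Txnip, an inhibitor of thioredoxin and glucose uptake, had a median of 654 CPM over hashtags in cells with such a UMI, 587 CPM in those without, and 136.5 CPM in the other cells. Klf2, a quiescence and trafficking factor of lymphocytes, stood at 279.5, 228 and 62.6 CPM in the same order. Il5 was low in both, at 59.2 and 47.6 CPM against 649 CPM. All 3 differences from the other cells held in 8 of 8 hashtags for both kinds of cell. Both kinds were placed in the cluster from these same counts, and the 3 genes are among its highest and lowest. These gaps therefore describe the cluster and carry no test. Dnajb1 differed more between them, at 290.1 and 125.5 CPM against 52.2, and Jun at 1545 and 955 CPM against 488.5.

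By log2 ratio the leading 20 were, after the 3 above, Txnip (2.21), Klf2 (1.99), the linker histone Hist1h1e (1.59), Zfp36 (1.44), Rhob (1.44), Jun (1.40), Socs1 (1.33), Ccr9 (1.28), Ttn (1.26), Tcrg-C1 (1.14), B930036N10Rik (1.11), Gm26532 (1.10), Chordc1 (1.10), Phlda1 (1.07), Ifi209 (1.05), Gm17056 (1.02) and Dusp1 (1.01). Zfp36 destabilises cytokine mRNAs, Dusp1 inactivates MAP kinases and Socs1 dampens cytokine receptor signalling. Each was higher in cluster 4 in 8 of 8 hashtags except Tcrg-C1, with 7. Txnip in cluster 4 ran from 448 CPM in hashtag 7 to 757.5 CPM in hashtag 4, against 96.95 to 155 CPM in the other cells, and its next highest cluster mean was 215 CPM in cluster 1. Several were near cluster 2: the log2 ratio to cluster 2 alone was 0.24 for Gm17056, 0.35 for Tcrg-C1, 0.37 for Dusp1 and 0.44 for Zfp36.

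Cytokine genes were among the lowest in cluster 4. Il5, the eosinophil growth factor, was at 36.6 and 51.95 CPM in the PBS hashtags, 66.7, 48.9 and 55.85 CPM with IL-33, and 58.0, 42.2 and 54.2 CPM with dopamine. The other cells held 481 and 448, then 399, 646 and 562, then 652, 779 and 847 CPM, so the groups did not overlap, and the log2 ratio was -3.58. Il13, which drives mucus and airway reactivity, had a ratio of -2.50. The remaining 8 of the lowest 10 were Mir155hg (-2.69), Plaur (-2.44), the survival genes Bcl2a1d (-2.34) and Bcl2a1b (-2.05), the NF-kB subunit Rel (-2.31), Ramp3 (-2.24), the chemokine Ccl1 (-2.12) and Cd83 (-2.05). Il5 and Il13 were also low in clusters 0 and 1, though Il5 was lowest in cluster 4. Il5 averaged 54.3 CPM in cluster 4, 86.5 in cluster 0, 113 in cluster 1 and 2453 in cluster 3. Il13 was 63.4 CPM in cluster 4 and 61.8 in cluster 0.

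**Figure D3:**
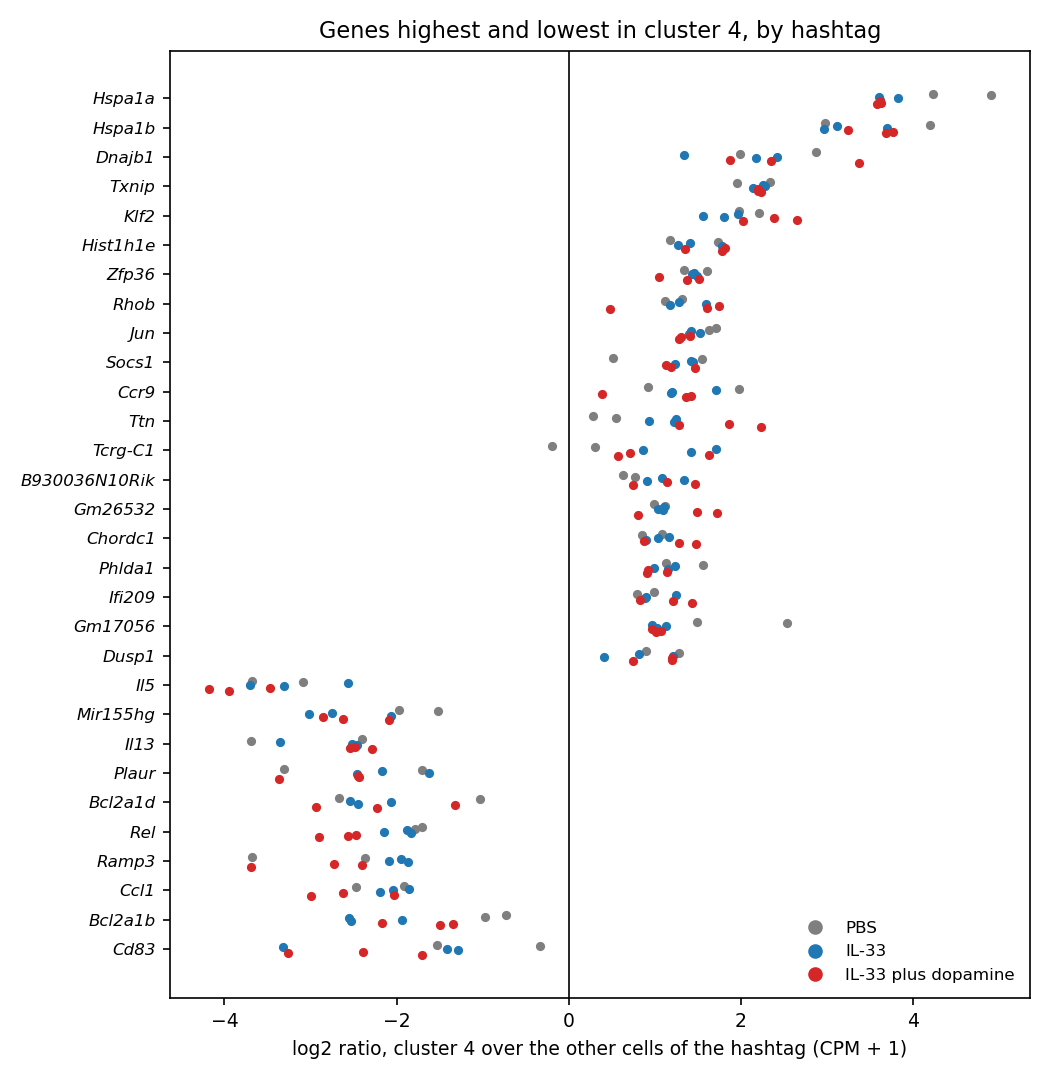
Log2 ratio of CPM + 1, cluster 4 over the other cells of the same hashtag, for the 20 highest and 10 lowest genes; each point is 1 of 8 hashtags, coloured by treatment. Hspa1a and Hspa1b lie beyond 2.9 in all hashtags, and Tcrg-C1 is the sole gene with points on both sides of 0.

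Across the chaperone families, Hspa1a, Hspa1b and Dnajb1 had ratios above 2, and the next were Chordc1 (1.10) and Hsp90aa1 (1.01) of the HSP90 group. Of 65 heat-shock genes in the lists, 56 reached 10 CPM, of which 20 were higher than in the other cells in 8 of 8 hashtags and 2 lower. Over all 6846 genes at that level, 12.6% were higher and 5.62% lower in 8 of 8. The median log2 ratio was 0.23 over the 56 genes and 0.15 over all genes. These counts describe clusters drawn from the same genes and support nothing further.

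Among 9 HSP70 and HSP110 genes, Hspa1a, Hspa1b, the exchange factor Hsph1 (0.92) and constitutive Hspa8 (0.48) were higher in 8 of 8, and Hspa2 (-0.79) was lower. Of 9 HSP40 genes, Dnajb1 and Dnaja1 (0.58) were higher and Dnajb6 (-0.44) lower in 8 of 8. HSP90 and its co-chaperones had 8 of 13 higher and none lower. They were Hsp90aa1 (1.01), the inducible HSP90, constitutive Hsp90ab1 (0.29), the HSP90-binding Chordc1 (1.10), the ATPase activators Ahsa1 (0.70) and Ahsa2 (0.54), and Cacybp (0.66), Ppid (0.50) and Fkbp5 (0.44). Hsp90aa1 stood at 1135 and 945 CPM in the PBS hashtags, 736, 916 and 478 CPM with IL-33 and 729, 663 and 730.4 CPM with dopamine. Its lowest value was in hashtag 5, and PBS and IL-33 did not overlap.

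Chaperones of other compartments stood closer to the other cells. Hspd1 (0.46) and Hspe1 (0.28) were the 2 of 6 mitochondrial chaperones higher in 8 of 8, and Cct4 (0.09) the 1 of 8 subunits of the cytosolic chaperonin TRiC. Of 7 exchange factors and ubiquitin genes, Bag4 (0.63) and Ubb (0.27) were. Hsf1, the factor that drives the response, was at 41.4 CPM in cluster 4 and 45.5 CPM in the other cells (-0.21). Of the 4 genes listed under small heat-shock proteins, Hspb11 alone reached 10 CPM, and whether it belongs to that family by function was not examined. In the endoplasmic reticulum, Hspa5, the chaperone of the unfolded protein response, was lower in 8 of 8 (-0.24), and the stress factor Ddit3 was higher (1.10). The 17 genes of that list had a median of 0.00, with 3 higher and 1 lower in 8 of 8. These counts and that of TRiC lay near the shares of all genes in 8 of 8, 12.6% higher and 5.62% lower.

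**Figure D4:**
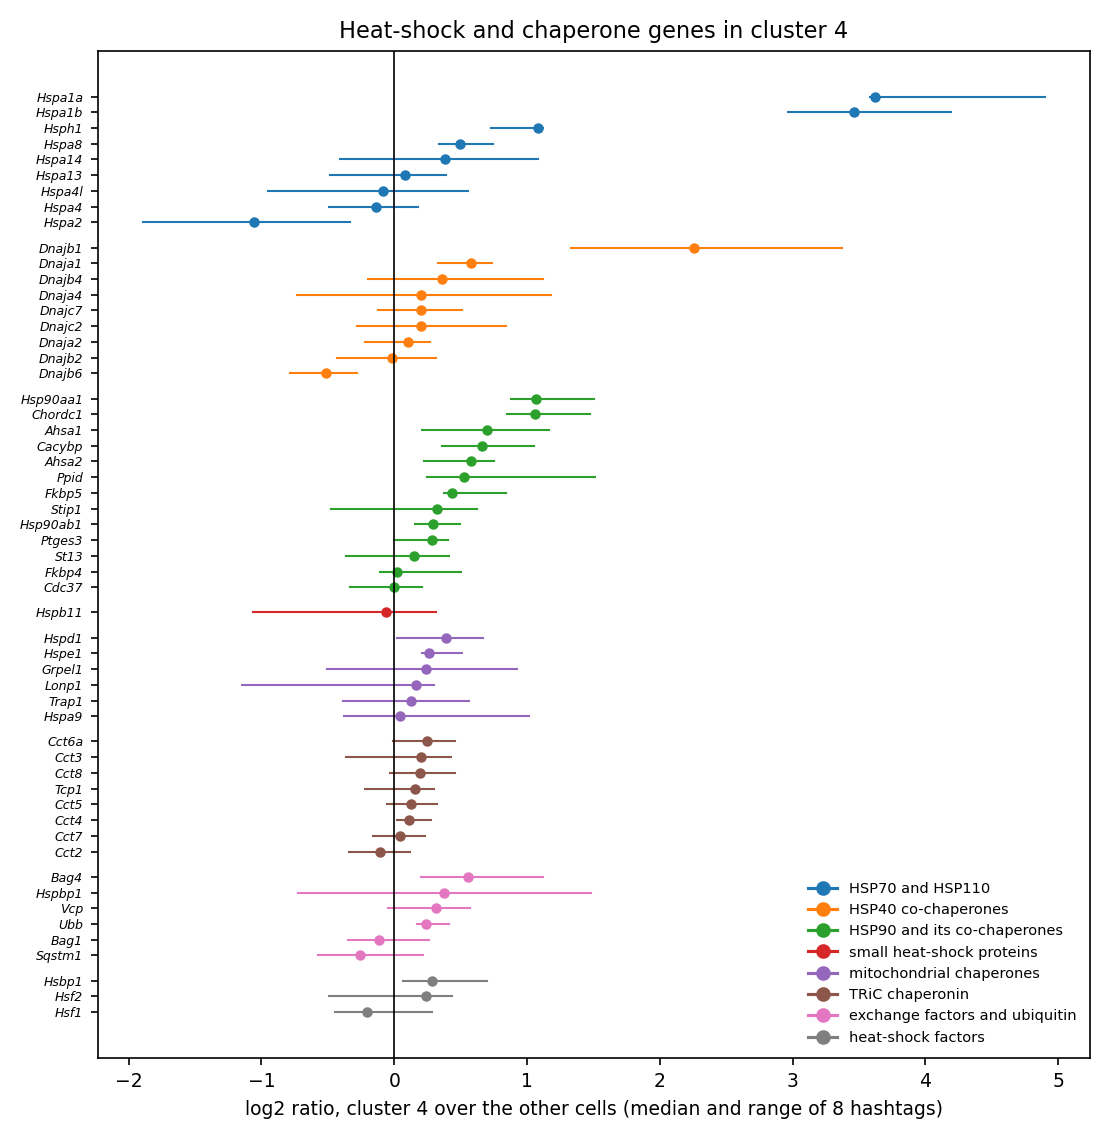
Median (point) and range (line) over 8 hashtags of the log2 ratio, cluster 4 over the other cells, for heat-shock genes of at least 10 CPM, coloured by family. Hspa1a, Hspa1b and Dnajb1 stand apart, the HSP90 group lies mostly between 0 and 1, and most mitochondrial and TRiC genes lie near 0.

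Immediate early genes were divided. Of 26 at 10 CPM or more, 11 were higher in 8 of 8 hashtags and 6 lower, with a median ratio of 0.12. For this list and those below, the background over all genes was 12.6% higher and 5.62% lower, with a median of 0.15. Fos (0.93), Jun, Ier2 (0.72), Klf6 (0.84), Zfp36, Dusp1 and Rhob were among the higher, and Nr4a1 (-0.54), Nr4a3 (-1.57), Fosl2 (-0.91), Egr3 (-0.87) and Gadd45b (-1.04) among the lower. The cAMP and CREB list had 7 of 11 lower and none higher (median -0.77), among them Crem (-1.26) and Sik1 (-0.78), both CREB targets. In the NF-kB list 6 of 15 were lower and none higher (median -0.33), Nfkb1 at -0.87 and Nfkbie at -1.06. Type 2 effectors had 7 of 13 lower (median -1.02), with Csf2 at -1.99 and Areg at -1.36, and Bmp7 higher (0.44). Of 22 ILC2 identity genes, 4 were lower (Rora -1.24, Arg1 -0.56, Ets1 -0.32, Gata3 -0.26) and 2 higher (Bcl11b 0.45, Il7r 0.29). The list of immediate early genes also holds genes known from tissue dissociation, and the part of dissociation in the profile was not tested.

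Across the 48 sums of a cluster in a hashtag, the genes most like Hspa1a by Spearman correlation over 6865 genes were Hspa1b (0.80), Ubtf (0.76), Tnfsf10 (0.73), Commd2 (0.73), Ino80b (0.72), Insig2 (0.71), Nfic (0.71) and Coa3 (0.70). The sums share hashtags, clusters and depth, so the values are a description. Psmd7 followed at 0.7004, and then Dnajb1 at 0.6955.

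Dopamine added to IL-33 was compared with IL-33 alone within cluster 4, over the 3 hashtags of each. By edgeR's quasi-likelihood test with Benjamini-Hochberg adjustment, 4 of 7304 genes (0.0548%) passed an adjusted p under 0.05: Klf2 and Klf4, both Krüppel-like factors, rose (0.0274% of genes rose), and Csf2 and Egr1 fell (0.0274%). No heat-shock gene was among them, 0 of 56 tested, with a median log2 fold change of -0.09 against -0.00 for all genes. An unadjusted p under 0.05 was reached by 475 genes, and DESeq2 called the same 4.

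Klf2 in cluster 4 stood at 223, 189.7 and 193 CPM with IL-33 and at 403, 391 and 298 CPM with dopamine, against 249 and 292 CPM in PBS. The dopamine hashtags did not overlap the IL-33 hashtags, and the log2 fold change was 0.82 ± 0.12 (SE, n = 3 and 3; edgeR adjusted p = 0.0030). In the other cells the same comparison gave 0.28, and the difference between these effects, 0.52 ± 0.14, did not pass (edgeR adjusted p = 0.0997). Klf4, a growth-arrest factor, was at 263, 244.5 and 286 CPM with IL-33 and 363, 450.0 and 467 CPM with dopamine, also without overlap. Its log2 fold change was 0.64 ± 0.11 (edgeR adjusted p = 0.011), with 0.29 in the other cells and a difference of 0.34 that did not pass (edgeR adjusted p = 0.27). Among cells between the 10th and 90th percentile of UMIs neither gene passed (edgeR adjusted p = 0.13 for Klf2 and 0.068 for Klf4). Klf4 was also lost without hashtag 3, 4 or 7 (edgeR adjusted p = 0.26, 0.074 and 0.0504).

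Csf2, which encodes GM-CSF, was at 414.5, 584.5 and 539 CPM with IL-33 and 324, 293 and 303 CPM with dopamine in cluster 4. The groups did not overlap, and the dopamine values lay near those of PBS (373 and 319 CPM). Its log2 fold change was -0.75 ± 0.11 (SE, n = 3 and 3; edgeR adjusted p = 0.0030). In the other cells, with 1462 to 1788 CPM under IL-33 and 1121 to 1498 CPM with dopamine, it was -0.26. The difference of -0.49 ± 0.11 passed (edgeR adjusted p = 0.030), but not with DESeq2 (adjusted p = 0.14) or without any one of hashtags 4 to 8 (edgeR adjusted p = 0.056 to 0.37). Klf2 and Csf2 are also among the genes that set cluster 4 apart, Klf2 among the leading 20 and Csf2 at -1.99.

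Egr1, an immediate early transcription factor, was at 237, 365 and 222 CPM with IL-33 and 159, 119.5 and 129 CPM with dopamine in cluster 4. All dopamine values lay below all IL-33 values, and the log2 fold change was -0.98 ± 0.16 (SE, n = 3 and 3; edgeR adjusted p = 0.0084). In the other cells, at 130.4, 157 and 126 CPM with IL-33 and 118, 116 and 155 CPM with dopamine, the groups overlapped and the change was -0.08. The difference between cluster 4 and the other cells was -0.88 ± 0.14 (edgeR adjusted p = 0.00047). Without hashtag 8 it was -0.67 and did not pass (edgeR adjusted p = 0.057).

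**Figure D5:**
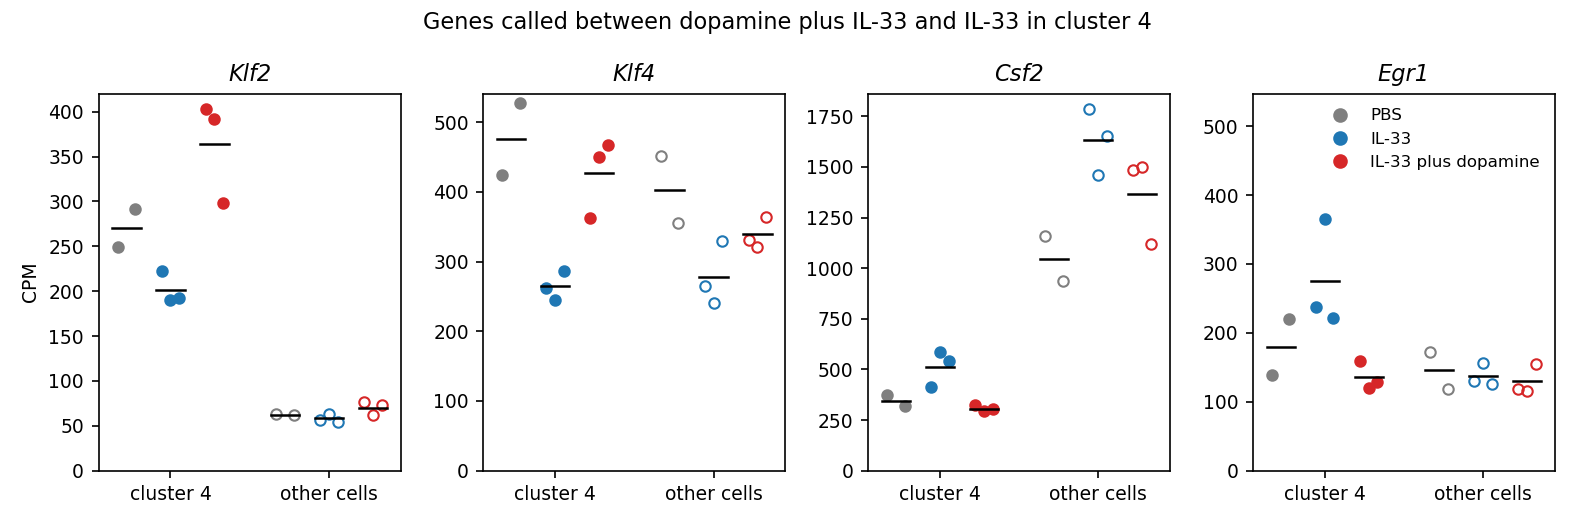
CPM of Klf2, Klf4, Csf2 and Egr1 in cluster 4 (filled points) and in the other cells (open points); each point is 1 hashtag, coloured by treatment, and the bar is the group mean. The 4 genes were picked because they passed this comparison in cluster 4. That their IL-33 and dopamine points do not overlap there adds no support. In the other cells the points overlap for each of the 4, and the difference between the effects did not pass for Klf2 or Klf4.

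The heat-shock genes themselves did not pass under dopamine. Hspa1a had a log2 fold change of 0.33 ± 0.15 (edgeR adjusted p = 0.72) in cluster 4 and 0.50 ± 0.15 (edgeR adjusted p = 0.33) in the other cells. For Hspa1b it was 0.51 ± 0.14 (edgeR adjusted p = 0.48) and for Dnajb1 0.52 ± 0.27 (edgeR adjusted p = 0.77), the latter -0.09 without hashtag 8. Hspa1b and Dnajb1 passed when no filter on low counts was used (edgeR adjusted p = 0.0020 and 0.0069), and Hspa1b without hashtag 4 (0.045).

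The difference between the dopamine effect in cluster 4 and that in the other cells, with the hashtag as a block, passed for 36 of 10249 genes (0.351%), 6 higher (0.0585%) and 30 lower (0.293%) in cluster 4. None of 60 heat-shock genes was among them. By p-value, the first of those lower in cluster 4, beside Egr1, were Lmo4 (-0.58), the Notch target Hes1 (-0.81) and the NF-kB regulator Nfkbiz (-0.50). Next came the kinase Pim1 (-0.47), Zfp36l1 (-0.37), Ier5 (-0.65) and Ramp3 (-0.99). Ramp3, a receptor activity modifier that pairs with calcitonin family receptors, had log2 fold changes of -0.26 in cluster 4 and 0.76 in the other cells, neither of which passed alone. The 6 on the higher side were S100a6 (0.65), Lgals1 (0.58), Vim (0.47), S100a4 (0.30), Ccrl2 (0.86) and Reep5 (0.62). S100a6 and Vim had dopamine fold changes of -0.06 and -0.11 in cluster 4 and -0.66 and -0.56 in the other cells. The makeup of the other cells moved with the hashtags: cluster 5 took 22.02% of the cells of hashtag 3 and 1.76% of those of hashtag 8. With cluster 5 left out of the other cells, 36 genes passed, 30 of them shared, and Vim, S100a4, Ccrl2 and Reep5 were lost. Without hashtag 8, 6 genes passed, and without hashtag 3, 13.

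IL-33 against PBS within cluster 4 shares the IL-33 hashtags with the comparison above. It called 10 of 7249 genes (0.138%), 1 higher (0.0138%) and 9 lower (0.124%) with IL-33 (edgeR, adjusted p under 0.05), and 510 at an unadjusted p under 0.05. None of 56 heat-shock genes passed. Atf3, a stress-induced transcription factor, was at 168 and 517 CPM in PBS hashtags 1 and 2 and 62.5, 93.05 and 81.85 CPM with IL-33. The groups did not overlap, the PBS hashtags differed from each other by more than the gap between the groups, and the log2 fold change was -2.39 ± 0.22 (SE, n = 3 and 2; edgeR adjusted p = 2.3e-09). The other genes that fell were Junb (-0.52), Gm47283 (-1.30), Klf4 (-0.91), Mxd1 (-1.03), Hes1 (-0.66), Nrip1 (-0.62), Tnfsf11 (-0.87) and Arid5b (-0.90), and 2410006H16Rik rose (0.83). DESeq2 did not call Atf3 (-2.17, adjusted p = 0.095), nor Arid5b or Tnfsf11. Without PBS hashtag 2 the PBS group is 1 hashtag of 30 cells, which is assumed to vary like the IL-33 hashtags. In that fit Atf3 was at -1.05 and did not pass (edgeR adjusted p = 0.42), 2 of the 10 calls were kept, and the 11 genes called were 7 higher and 4 lower with IL-33.

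IL-33 with dopamine against PBS, which shares groups with both comparisons, called 6 of 5204 genes (0.115%; 353 at an unadjusted p under 0.05), all lower than in PBS. They were Mxd1 (-1.45), Atf3 (-1.85), Junb (-0.55), Hes1 (-1.16), Nfkbia (-0.52) and Rgcc (-1.12). None of 51 heat-shock genes passed; Hsp90aa1 had -0.56 (edgeR adjusted p = 0.059). No gene passed without PBS hashtag 2, again with PBS as 1 hashtag and its spread assumed.

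Hspa1a was the heat-shock gene for which the IL-33 effect differed between cluster 4 and the other cells. Its log2 fold change against PBS was -0.44 in cluster 4 and 0.57 in the other cells, neither of which passed, and the difference was -1.06 ± 0.22 (edgeR adjusted p = 0.037). That test passed for 6 of 8395 genes (0.0715%), all lower in cluster 4: Atf3 (-1.84), Arid5b (-1.09), Hspa1a, Vim (-0.71), Crip1 (-0.71) and S100a6 (-0.70). Without PBS hashtag 2 none of the 6 was kept, and 15 genes passed, 13 higher and 2 lower in cluster 4. In the other cells Vim, Crip1 and S100a6 rose with IL-33 (0.84, 0.79 and 0.71), where 47 of 10240 genes (0.459%) rose. For Hspa1a the call was lost with DESeq2 (adjusted p = 1.00), with cluster 5 left out (edgeR adjusted p = 0.46), among cells of middle depth (0.96) and without hashtag 2, 3, 4 or 5 (0.80, 0.13, 0.052 and 0.13). DESeq2 called 0 genes in this test, with 219 at an unadjusted p under 0.05.

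In the bulk libraries the same genes were measured over all sorted ILC2s, in TPM (transcript levels per length, scaled by the authors to a common total). In bulk, fewer cells of a type and less RNA per cell cannot be told apart. Hspa1a was at 579.9, 129 and 414 TPM in IL-33 plus PBS libraries 1 to 3 and 562.5, 1458 and 1399.96 TPM in dopamine libraries 1 to 3. The groups overlapped through PBS library 1, and the change was 1.73 ± 0.52 on the log2(TPM + 1) scale (limma adjusted p = 0.11). Over the libraries left out in turn, the adjusted limma p was 0.041 without PBS library 1 and 0.13 to 0.29 otherwise. Without PBS library 1, 1536 of 10733 genes passed, and without PBS library 2 none did (1569 at an unadjusted limma p under 0.05). The median of all 11222 genes was 0.49, which median-of-ratios scaling put at 0.05, so relative to that median Hspa1a was at 1.24. Dnajb1 was at 173, 93.4 and 197 TPM against 266, 479 and 474 TPM, without overlap, a change of 1.41 ± 0.33 (limma adjusted p = 0.083). Its adjusted limma p was 0.0399 without PBS library 1 and 0.073 to 0.24 without each of the others.

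Of the 20 genes highest in cluster 4, 16 were tested in bulk and 0 passed, while 4 of 11222 genes (0.0356%) passed overall and 2706 had an unadjusted limma p under 0.05. For 11 of the 16 the dopamine libraries lay above the PBS libraries without overlap, against 23.5% of all genes tested, and for none below, against 6.57%. Their median was 1.42, or 0.93 relative to all genes, 0.90 with median-of-ratios scaling and 0.97 without PBS library 2, which held the fewest genes at 1 TPM (9822 against 10525 to 11745). The 10 lowest genes of cluster 4 were all tested and 0 passed, with 3 higher and 0 lower without overlap (Plaur 1.92, Bcl2a1b 1.54 and Rel 1.34) and a median of 0.56, or 0.06 relative to all genes. Klf2 was at 7.34, 4.30 and 11.6 TPM with PBS and 27.0, 40.5 and 17.3 TPM with dopamine, without overlap (1.75 ± 0.50; limma adjusted p = 0.10). Over 61 heat-shock genes, 0 passed, 19 were higher and 2 lower without overlap, and the median of 0.42 lay 0.08 below that of all genes. Egr1 went the other way from cluster 4, at 131, 63.8 and 139 TPM with PBS and 274, 345 and 322 TPM with dopamine (1.56; limma adjusted p = 0.083). The assays differ in the sex of the mice, the protocol and the cells pooled, and that difference was not tested.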

How the data were processed

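Droplet UMI counts were made by the authors with Cell Ranger 6.1.1 and Seurat 4.0.2 on mm10, and bulk TPM with cutadapt 2.10, STAR 2.7.5c and RSEM 1.3.3, per the submitters' processing notes; settings are not given in the sources used here. The deposited counts are whole numbers for 15083 genes in 9076 cells. The percent of mitochondrial UMIs, the hashtags, the treatments and the cluster numbers are the authors' deposited columns. Cluster 4 counts were summed per hashtag and tested with edgeR 4.0.16 (TMM, filterByExpr, quasi-likelihood) on the hashtags of the groups compared, and the difference from the summed other cells as an interaction with the hashtag as a block. Bulk genes were tested with limma 3.58.1 (trend) on log2(TPM + 1), for genes at 1 TPM or more. All adjustments ran over all genes tested. Alternatives were DESeq2 1.42.0, other scaling, no filter, cells between the 10th and 90th percentile of UMIs, other pseudocounts (0.1 and 5) and leaving out each replicate. Leaving cluster 5 out of the other cells was chosen after seeing the data. The named genes are the 20 highest and 10 lowest by median log2 ratio over the IL-33 and dopamine hashtags among those of at least 50 CPM, genes that passed, and heat-shock list members. The members and lists were chosen with earlier results of these data known. A single gene of the heat-shock lists enters the counts but is not named here. The scripts were tested on simulated data. In the bulk data equally numbered libraries correlated at 0.0186, -0.0710 and -0.00177 after removal of group means, and the labels do not say that a number marks a shared animal or day.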

Additional observations from a re-analysis of the deposited data

Results flagged for a closer look

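The tests of the difference between cluster 4 and the other cells (edgeR, hashtag as a block) put 20 named values on the list for a second look. For dopamine plus IL-33 against IL-33 the effect was higher in cluster 4 for S100a6 by 0.65, Lgals1 by 0.58, Vim by 0.47, S100a4 by 0.30, Ccrl2 by 0.86 and Reep5 by 0.62 on the log2 scale. The effect was lower in cluster 4 for Lmo4 (-0.58), Hes1 (-0.81), Egr1 (-0.88), Nfkbiz (-0.50), Pim1 (-0.47), Zfp36l1 (-0.37), Ier5 (-0.65) and Ramp3 (-0.99). Lgals1 had fold changes of -0.72 in the other cells and -0.18 in cluster 4, neither of which passed alone. For IL-33 against PBS the effect was lower in cluster 4 for Atf3 (-1.84), Arid5b (-1.09), Hspa1a (-1.06), Vim (-0.71), Crip1 (-0.71) and S100a6 (-0.70). Of these, Vim, Crip1 and S100a6 rose with IL-33 in the other cells (0.84, 0.79 and 0.71, edgeR adjusted p = 0.0050, 0.0043 and 0.036). Vim and S100a6 stand in both sets with opposite signs, and the sets share the IL-33 hashtags.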

How the results depend on the processing

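Leaving out each replicate in turn gave 3 to 17 genes in place of 4 for dopamine in cluster 4, 5 to 20 in place of 10 for IL-33 and 0 to 26 in place of 6 for dopamine plus IL-33 against PBS. The difference of the dopamine effect gave 6 to 34 in place of 36, that of the IL-33 effect 1 to 15 in place of 6, and bulk 0 to 1536 in place of 4, the most without PBS library 1 and none without PBS library 2. Without a filter on low counts the 3 cluster 4 tests called 25, 26 and 19 genes. DESeq2 called 1 gene for dopamine plus IL-33 against PBS, 11 for the difference of the dopamine effect and 0 for that of the IL-33 effect. With all 8 hashtags sharing the spread, dopamine plus IL-33 against PBS called 10. The difference of the IL-33 effect called 1 gene among cells of middle depth and 1 without cluster 5. In bulk, a pseudocount of 5 gave 2 genes and no filter 0. A replicate block on the bulk numbers, which the labels do not tie to a shared source, gave 15.

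Some directions turned when 1 replicate was left out. Over these, the share of cluster 4 under dopamine ran from -5.43 to 0.0617 points, the highest without hashtag 7. Dnajb1 under dopamine ran from -0.085 (without hashtag 8) to 0.84. For IL-33 against PBS, Hspa1a ran from -0.71 to 0.19 and Hspa1b from -0.60 to 0.45, both highest without hashtag 2. Dnajb1 there ran from -0.31 (without hashtag 2; -0.29 without hashtag 4) to 0.29, and was at -0.040 with DESeq2. For dopamine plus IL-33 against PBS, Hspa1a ran from -0.35 to 0.52 (without hashtag 2), Hspa1b from -0.069 (without hashtag 1) to 0.97 and Dnajb1 from -0.046 (without hashtag 8) to 0.82. Hspa1a there was at 0.056 among cells of middle depth. The difference of the IL-33 effect ran from -0.97 to 0.38 (without hashtag 2) for Hspa1b and from -0.78 to 0.036 (without hashtag 3) for Dnajb1, which was at 0.087 at middle depth. Against single clusters, Il13 was at 0.061 and Cd83 at 0.43 over cluster 0, and Plaur at 0.88 over cluster 1. The causes were not tested. Hashtag 1, with 30 cells of cluster 4, limits all comparisons with PBS.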

Other observations

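Proteasome genes, which encode the particle that degrades ubiquitin-tagged proteins, lay near the background. Of 27, 4 were higher than in the other cells in 8 of 8 hashtags and none lower, with a median log2 ratio of 0.21, where 12.6% of all genes were higher, 5.62% were lower and the median was 0.15. Cytosolic ribosome genes had 15 of 86 lower and 2 higher in 8 of 8 (median -0.03). Of 13 respiratory chain subunits encoded in mitochondrial DNA, 5 were lower and none higher (median -0.10), whereas of 24 subunits encoded in the nucleus none was on 1 side in all hashtags (median 0.01). Of 7 oxidative stress genes of the NRF2 list, the ferritin light chain Ftl1 was higher (0.17) and the heavy chain Fth1 lower (-0.48; 1959 against 2769 CPM) in 8 of 8 hashtags, with a list median of 0.04. These values describe a cluster drawn from the same counts and were not tested.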
